A study of Mus musculus with 9 samples.

Results

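The 10 genes of one early transcriptional program were followed, namely Atf3, Jun, Junb, Jund, Fos, Fosb, Fosl2, Egr1, Ier2 and Csrnp1. They were chosen by name, as Atf3, the factor that the study places downstream of Mettl3, with its AP-1 relatives and classical immediate early genes. All 10 of the 10 were found among the 54838 gene identifiers of the deposited tables. Intestinal organoids of the genotype Vil-CreERT2;Mettl3 fl/fl, from mice on a C57BL/6 background, were profiled by bulk RNA-seq. Vil-CreERT2 places a tamoxifen-dependent Cre recombinase under the villin promoter of the intestinal epithelium, and its ligand 4-hydroxytamoxifen (4-OHT) lets it excise the floxed part of Mettl3, an RNA m6A methyltransferase. Organoids of this single genotype received 4-OHT at 0.5 µM or its solvent ethanol (EtOH) for 2 days, together with DMSO or necrostatin-1 (Nec-1), an inhibitor of the kinase RIPK1, for 5 days. The mice were males of 2 to 4 months, and the Nec-1 dose is 5 µM in one place of the study's text and 10 µM in another. The groups EtOH DMSO, 4-OHT DMSO and EtOH Nec-1 had 2 libraries each, and 4-OHT Nec-1 had 1. No organoids without Cre received 4-OHT, so the drug and the deletion cannot be told apart here. The labels do not say whether replicate libraries came from separate cultures, so the p-values measure a spread that may be technical.

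AP-1 is a family of dimeric transcription factors made of JUN and FOS proteins, which bind the TRE and CRE motifs of DNA. ATF3 is a related leucine zipper protein that pairs with JUN proteins and is induced by many kinds of cellular stress. Fos, Egr1, Ier2 and their like are immediate early genes. They are transcribed within minutes of growth factor, stress or dissociation signals, from pre-existing factors such as SRF and phosphorylated JUN, and their mRNAs are short-lived. In the gut epithelium AP-1 is known for its part in proliferation and in the response to injury.

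The genes are scattered over the mouse genome (GRCm38.p6, that is mm10, RefSeq gene spans). Atf3 lies at chr1:191170296-191183333, Jun at chr4:95049036-95052222, Fosl2 at chr5:32136472-32157840 and Fosb at chr7:19302696-19310118. Jund (chr8:70697739-70700616), Ier2 (chr8:84661331-84662852) and Junb (chr8:84976909-84978748) share chromosome 8, with 314 kb from the end of Ier2 to the start of Junb. Csrnp1 lies at chr9:119971163-119984742 and Fos at chr12:85473890-85477274. No other RefSeq gene overlaps them, except Gm33800 at Csrnp1, among the 9 genes placed here.

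The promoters of 6 genes that rose together are shown, since AP-1, ATF and EGR factors are known to bind short motifs of this kind and can act on their own family members. RefSeq promoter windows of 250 bases before to 50 bases after a transcription start were matched for 8 of the 10 genes, all but Ier2 and Egr1. The windows are chr1:191183284-191183583 for Atf3, chr4:95052173-95052472 for Jun and chr8:84978699-84978998 for Junb, all on the minus strand. Those on the plus strand are chr8:70697489-70697788 for Jund, chr12:85473640-85473939 for Fos and chr5:32136222-32136521 for Fosl2. Capitals mark a CRE-like motif (TNACNTCA) in Atf3, Jun and Jund, a TATA box (TATAAA) in Junb and Fos and an EGR site (GCGNGGGCG) in Fosl2.
Atf3: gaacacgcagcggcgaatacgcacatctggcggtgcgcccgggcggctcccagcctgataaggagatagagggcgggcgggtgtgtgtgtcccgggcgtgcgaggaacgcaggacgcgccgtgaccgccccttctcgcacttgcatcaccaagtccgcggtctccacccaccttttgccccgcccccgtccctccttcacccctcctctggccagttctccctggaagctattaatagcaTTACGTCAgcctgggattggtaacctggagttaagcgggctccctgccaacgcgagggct
Jun: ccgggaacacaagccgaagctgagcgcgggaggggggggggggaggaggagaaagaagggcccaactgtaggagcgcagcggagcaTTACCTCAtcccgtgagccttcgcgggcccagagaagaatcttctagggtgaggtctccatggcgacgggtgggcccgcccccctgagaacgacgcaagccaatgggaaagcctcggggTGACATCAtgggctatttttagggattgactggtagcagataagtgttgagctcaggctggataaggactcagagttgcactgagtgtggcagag
Jund: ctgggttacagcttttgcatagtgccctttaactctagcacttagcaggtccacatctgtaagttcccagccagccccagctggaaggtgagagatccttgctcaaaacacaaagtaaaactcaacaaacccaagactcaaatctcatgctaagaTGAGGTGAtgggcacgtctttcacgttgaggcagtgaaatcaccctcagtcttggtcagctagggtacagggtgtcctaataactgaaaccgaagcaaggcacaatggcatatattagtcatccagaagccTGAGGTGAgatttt
Junb: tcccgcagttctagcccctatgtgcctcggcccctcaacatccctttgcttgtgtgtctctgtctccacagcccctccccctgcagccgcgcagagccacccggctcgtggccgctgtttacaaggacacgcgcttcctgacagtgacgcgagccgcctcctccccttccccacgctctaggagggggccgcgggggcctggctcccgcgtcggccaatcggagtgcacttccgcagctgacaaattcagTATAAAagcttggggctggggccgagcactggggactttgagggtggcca
Fos: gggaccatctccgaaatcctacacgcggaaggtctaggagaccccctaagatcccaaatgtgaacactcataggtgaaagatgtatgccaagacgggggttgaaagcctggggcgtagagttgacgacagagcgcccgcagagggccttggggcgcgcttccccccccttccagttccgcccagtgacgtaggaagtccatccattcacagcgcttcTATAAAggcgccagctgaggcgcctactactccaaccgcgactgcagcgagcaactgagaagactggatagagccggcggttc
Fosl2: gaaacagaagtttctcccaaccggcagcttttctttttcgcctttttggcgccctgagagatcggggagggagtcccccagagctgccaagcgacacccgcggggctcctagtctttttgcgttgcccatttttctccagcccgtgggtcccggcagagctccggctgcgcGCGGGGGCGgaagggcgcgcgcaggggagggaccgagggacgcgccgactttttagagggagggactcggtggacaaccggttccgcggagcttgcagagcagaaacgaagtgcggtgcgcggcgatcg

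Both strands were searched for these motifs, for the TRE (TGACTCA or TGAGTCA), the exact CRE (TGACGTCA), the CArG box of SRF and the GC box (GGGCGG). The CRE-like motif includes every exact CRE, and the EGR site can overlap a GC box. With the first transcribed base as position 1, Atf3 held the CRE-like match TTACGTCA at -10 to -3. Jun held TTACCTCA at -164 to -157 and TGACATCA at -45 to -38. Jund held a match on the minus strand at -95 to -88 and another at 37 to 44. Thus 3 of the 8 genes had a CRE-like motif, as did 16.4% of all 32851 RefSeq windows. No exact CRE and no CArG box was in these windows, motifs present in 1.79% and 1.63% of all windows. TRE matches (TGAGTCA) were in 1 of the 4 start windows of Csrnp1, at -102 to -96 and -14 to -8, and a TRE was in 5.20% of all windows. An EGR site, which EGR1 is known to bind, was in the windows of Fosb and Fosl2, against 5.55% of all. GC boxes were in 6 of the 8 genes, 5 of them in the Atf3 window, and in 35.7% of all windows. A TATA box was at -33 to -28 in Fos and at 1 to 6 in Junb, against 13.6% of all. These matches describe letters in short windows and are not evidence of binding. Sites outside the windows, near matches to a motif, and the promoters of Ier2 and Egr1 were not searched, so a missing match does not show that a gene lacks the element.

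**Figure D1:**
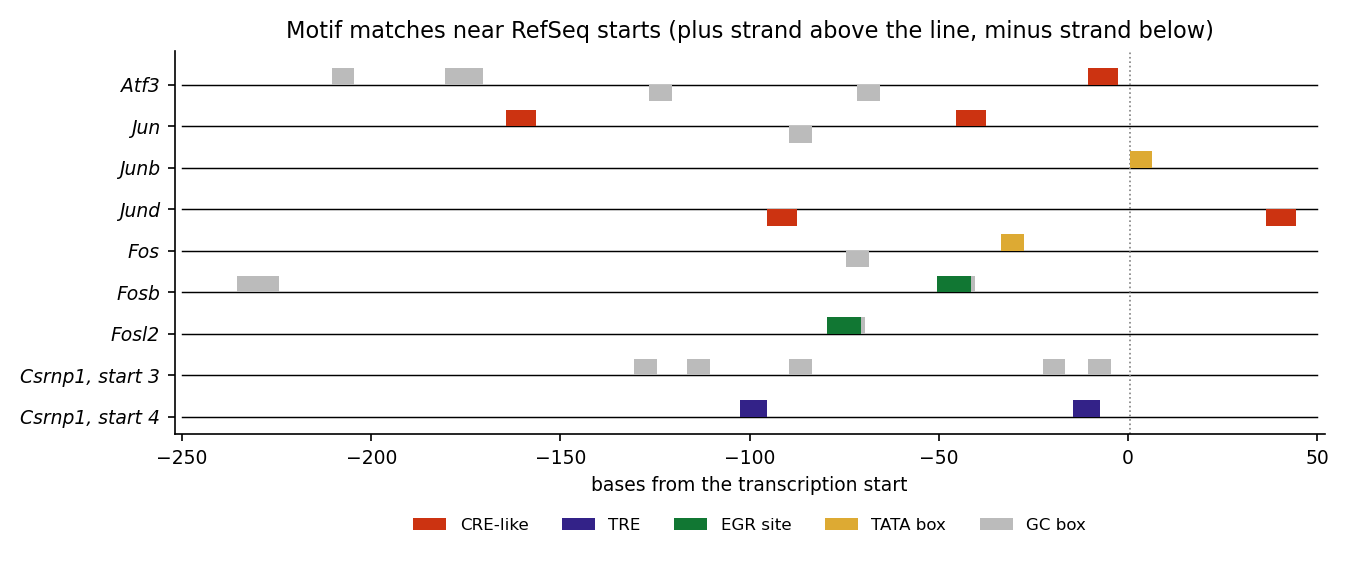
Motif matches (coloured boxes) by position in bases from the transcription start, 1 line per RefSeq start window with a match; boxes above a line lie on the plus strand relative to the gene, boxes below it on the minus strand. The CRE-like boxes of Atf3, Jun and Jund lie between -164 and 44, and GC boxes are the most frequent match.

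The values are FPKM, fragments scaled to transcript length and library size, so levels can be compared between genes. FPKM summed to between 450207 and 498712 per library. Fragment counts behind single values are unknown, and the depth read from the spacing of the lowest values was 0.850 to 1.03 relative to the first library with EtOH and DMSO. Mettl3 itself was higher, not lower, in the 3 libraries labelled 4-OHT than in any EtOH library. It was at 2.70 and 2.71 FPKM with EtOH and DMSO, 2.41 and 2.47 with EtOH and Nec-1, 3.72 and 4.14 with 4-OHT and DMSO, and 3.36 with 4-OHT and Nec-1, so every direction given here rests on the labels. The log2 difference of Mettl3 in 4-OHT DMSO to EtOH DMSO was 0.41 (SE 0.10, limma adjusted p = 0.0231). Across the other settings of the fit it ranged from 0.25 to 0.52, and its adjusted p was not under 0.05 in all of them. Whole-gene FPKM does not show the excised exon. Summed FPKM of 7 epithelial markers was 3142 to 4708 in every library, while 5 fibroblast markers summed to at most 0.107 and 3 endothelial markers to at most 0.144. The 5 immune cell markers summed to between 0.352 and 2.55 FPKM.

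The order of levels was led by Jund in each of the 4 groups, followed by Junb and Ier2. In the groups with 2 libraries the ranges of these neighbours did not overlap, while 4-OHT Nec-1 has no range. In EtOH DMSO the mean levels were 84.6 FPKM for Jund, 42.7 for Junb and 34.4 for Ier2. Fosl2, Jun, Egr1, Fos and Atf3 formed a middle rank between 9.58 and 6.19 FPKM, in which the ranges of Jun and Egr1, and of Egr1 and Fos, overlapped. Csrnp1 was at 1.15 FPKM and Fosb at 0.0335. In 4-OHT DMSO the order of the middle rank was Fos (26.0 FPKM), Jun (21.8), Egr1 (21.2), Fosl2 (18.2) and Atf3 (11.1), with only Jun and Egr1 overlapping. Below Atf3 lay only Csrnp1 and Fosb in both DMSO groups.

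**Figure D2:**
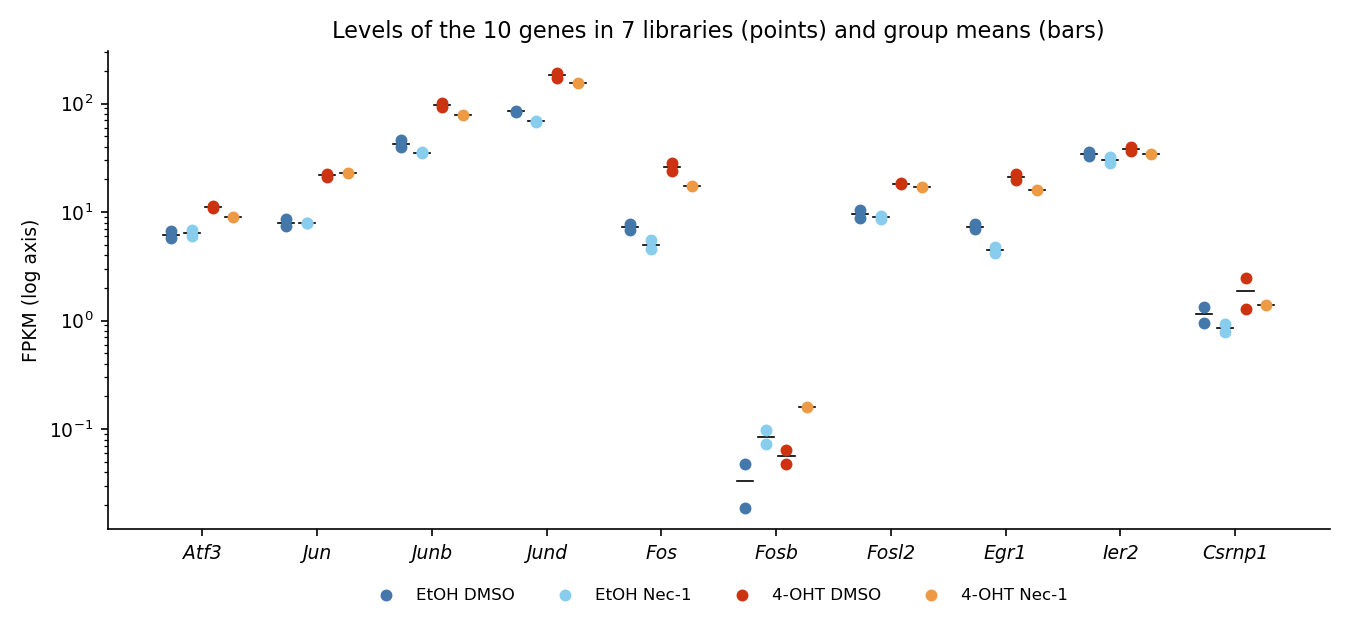
FPKM on a log axis of the 10 genes in the 7 libraries; each point is a library, coloured by group, and each short bar is a group mean. The 4-OHT DMSO points of Jun, Junb, Jund, Fos, Fosl2, Egr1, Atf3 and, narrowly, Ier2 lie above every EtOH point. Those of Csrnp1 and Fosb do not separate in this way. Ier2 was not called (limma adjusted p = 0.306), and the share of all genes that separate in this way was not counted.

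With 4-OHT and DMSO, compared with EtOH and DMSO, 7 genes rose: Atf3, Jun, Junb, Jund, Fos, Fosl2 and Egr1. They comprised 7 of the 9 genes with enough signal to test, and none was lower. The comparison asks how these genes stood after 4-OHT without the RIPK1 inhibitor, and uses limma on log2(FPKM + 1) with Benjamini-Hochberg adjustment over the 12702 genes that reached 1 FPKM in 2 or more libraries. In bulk libraries a change in the share of cells that express a gene and a change in its RNA per cell cannot be told apart. Over all genes 24.5% were called higher and 16.7% lower. The median log2 difference of the 9 genes was 1.09, against 0.077 over all genes. With each library centred on its own median, the median over all genes moved to -0.080 and that of the 9 genes to 0.94, and the same 7 kept their call. Differences of at least 1 log2 unit with an adjusted p under 0.05 were reached by Jun, Junb, Jund, Fos and Egr1, 5 of 9, and by 6.72% of all genes.

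Among the FOS genes, Fos encodes the labile c-FOS subunit. Its level was 6.80 and 7.83 FPKM in EtOH DMSO against 23.9 and 28.1 in 4-OHT DMSO, and with Nec-1 at 4.56 and 5.48 in EtOH against 17.3 in 4-OHT organoids. The 3 libraries labelled 4-OHT lay far above the 4 EtOH libraries, and the log2 difference of 4-OHT DMSO to EtOH DMSO was 1.70 (SE 0.13, limma with Benjamini-Hochberg adjusted p = 0.000893), the largest of the 9 genes. Fosl2 encodes FRA2, a more stable subunit without the strong activation domain of c-FOS. It was at 8.77 and 10.4 FPKM with EtOH and DMSO, 9.16 and 8.66 with EtOH and Nec-1, 17.99 and 18.3 with 4-OHT and DMSO, and 16.9 with 4-OHT and Nec-1. Again the 4-OHT libraries stood apart, with a log2 difference of 0.86 (SE 0.10, limma adjusted p = 0.00270). Fosb was close to absent, between 0.0189 and 0.161 FPKM in the 7 libraries, below the minimum for a test. Its highest value was in 4-OHT Nec-1, and the values of 4-OHT DMSO and EtOH DMSO overlapped.

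All 3 JUN genes rose, by 1.09 to 1.34 on the log2 scale. Jun, which encodes the main transactivating partner of c-FOS, was at 7.36 and 8.63 FPKM in EtOH DMSO against 22.4 and 21.2 in 4-OHT DMSO, and with Nec-1 at 7.85 and 7.97 in EtOH against 23.0 in 4-OHT organoids. Its 3 values with 4-OHT were near each other with or without Nec-1, and the log2 difference was 1.34 (SE 0.10, limma adjusted p = 0.000782). Junb, an immediate early gene whose product can dampen JUN activity, was at 39.5 and 45.8 FPKM with EtOH and DMSO, 34.6 and 35.4 with EtOH and Nec-1, 92.3 and 100.1 with 4-OHT and DMSO, and 78.5 with 4-OHT and Nec-1. Its difference was 1.16 (SE 0.10, limma adjusted p = 0.00116). Jund, the JUN gene with the steadiest transcription in most cells, was at 84.2 and 85.1 FPKM in EtOH DMSO against 171 and 193 in 4-OHT DMSO, and with Nec-1 at 68.0 and 69.5 in EtOH against 156 in 4-OHT organoids. Although the most abundant of the set, it also rose, by 1.09 (SE 0.09, limma adjusted p = 0.000912).

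Within the families, the mix of FOS genes shifted while that of JUN genes barely did. Jund made up 59.9% to 64.2% of the summed JUN family FPKM in all 7 libraries, Junb 30.2% to 32.8% and Jun 5.61% to 8.94%. In the FOS family Fos held 41.8% and 42.2% of the sum with EtOH and DMSO, 32.2% and 36.9% with EtOH and Nec-1, 55.3% and 58.4% with 4-OHT and DMSO, and 47.8% with 4-OHT and Nec-1. Fosl2 held the complement, 54.5% and 55.4% in EtOH DMSO against 41.7% and 38.1% in 4-OHT DMSO, and Fosl1 2.68% to 4.99%. Fos was thus the leading FOS transcript in the 3 libraries labelled 4-OHT, narrowly so in 4-OHT Nec-1, and Fosl2 in the 4 EtOH libraries. JUN family transcripts exceeded FOS family transcripts 7.44 to 8.14 times in EtOH DMSO and 6.53 to 6.63 times in 4-OHT DMSO. These shares are given as a description, without a test.

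**Figure D3:**
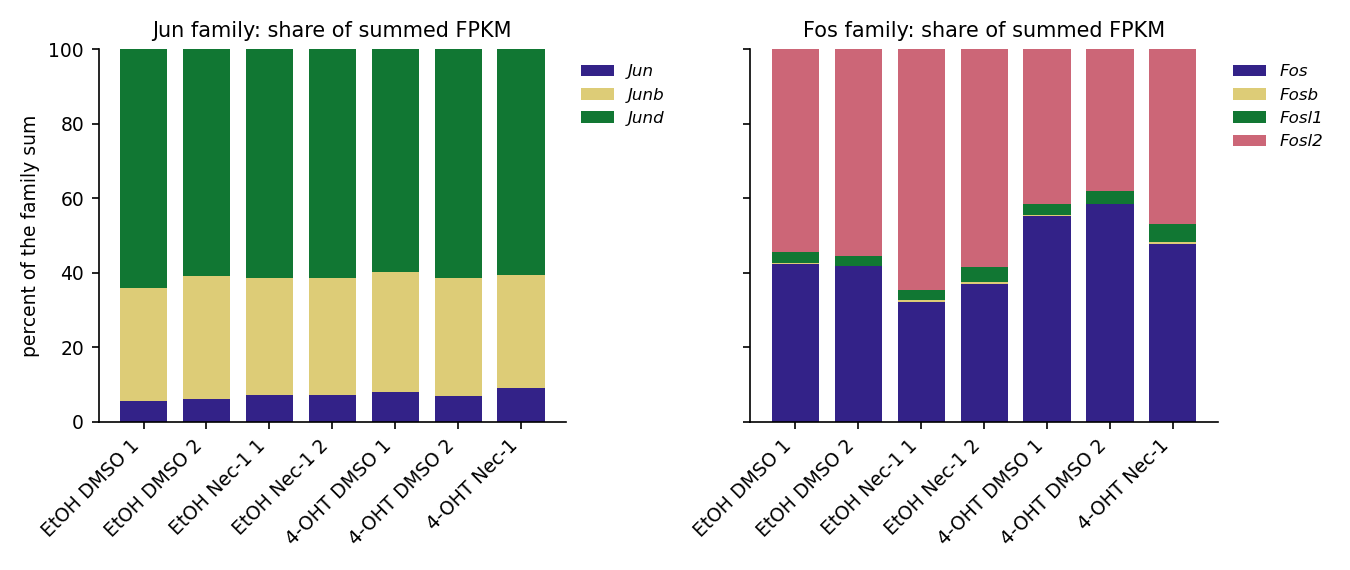
Share of each gene in the summed FPKM of its family, in percent, for JUN genes (left) and FOS genes (right) in the 7 libraries. The JUN shares are nearly level, and the Fos share is 41.8% to 42.2% in EtOH DMSO and 55.3% to 58.4% in 4-OHT DMSO.

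Atf3 encodes a stress-induced factor that represses or activates with its partner. It was at 5.75 and 6.63 FPKM with EtOH and DMSO, 6.83 and 6.00 with EtOH and Nec-1, 11.4 and 10.8 with 4-OHT and DMSO, and 9.001 with 4-OHT and Nec-1. Every library labelled 4-OHT was above every EtOH library, and the log2 difference of 4-OHT DMSO to EtOH DMSO was 0.76 (SE 0.11, limma adjusted p = 0.00466), the smallest of the 7 genes called. Across the other settings of the fit it ranged from 0.60 to 0.85. Relative to its JUN partners Atf3 did not gain, since its level was 4.39% and 4.76% of the JUN family sum in EtOH DMSO and 3.99% and 3.45% in 4-OHT DMSO.

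Among the other immediate early genes of the set, Egr1, a zinc finger factor, was at 6.93 and 7.74 FPKM in EtOH DMSO against 19.9 and 22.6 in 4-OHT DMSO, and with Nec-1 at 4.79 and 4.204 in EtOH against 16.0 in 4-OHT organoids. Like Fos it was lowest in EtOH Nec-1 and highest in 4-OHT DMSO, with a log2 difference to EtOH DMSO of 1.42 (SE 0.11, limma adjusted p = 0.000912). Ier2, a short-lived nuclear regulator, was at 32.9 and 35.9 FPKM with EtOH and DMSO, 28.04 and 32.4 with EtOH and Nec-1, 36.8 and 39.5 with 4-OHT and DMSO, and 33.9 with 4-OHT and Nec-1. Its difference of 0.15 (SE 0.10, limma adjusted p = 0.306) did not pass the threshold, and it was -0.01 after median centring. Csrnp1, a nuclear protein gene first described as induced by AXIN1, was at 0.958 and 1.35 FPKM in EtOH DMSO against 1.27 and 2.48 in 4-OHT DMSO, and with Nec-1 at 0.925 and 0.792 in EtOH against 1.40 in 4-OHT organoids. The DMSO groups overlapped and the difference was 0.39 (SE 0.23, limma adjusted p = 0.228), which became 0.70 (limma adjusted p = 0.0334) without the first 4-OHT DMSO library.

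**Figure D4:**
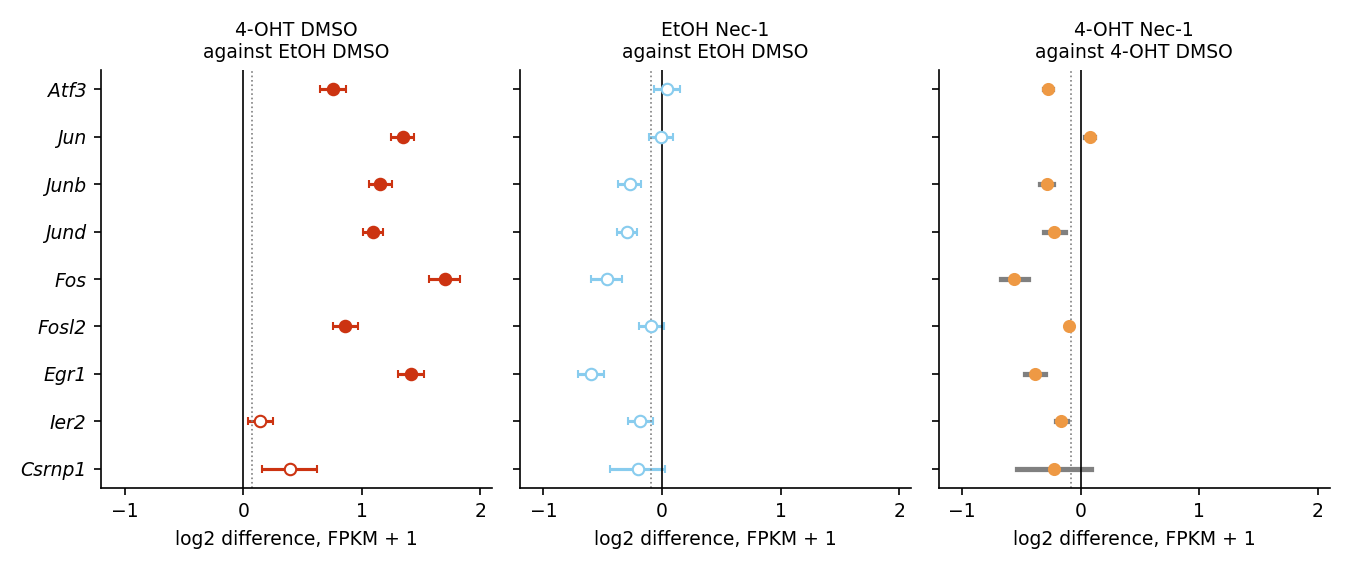
Log2 differences of FPKM + 1 for the 9 genes tested in 3 comparisons; bars are standard errors from limma in the first pair of panels and the range against each 4-OHT DMSO library in the third, filled points in the first pair passed the adjusted threshold, and dotted lines are medians of all genes. With 4-OHT, 7 genes are called higher, from 0.76 to 1.70, and with Nec-1 in EtOH organoids none is called.

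Nec-1 in EtOH organoids left none of the 9 genes past the threshold, in either direction. Over all genes 0.173% were called higher and 0.0472% lower (limma with Benjamini-Hochberg adjustment), 28 genes in all, and 1689 genes had an unadjusted p under 0.05. The lowest values were those of Egr1, with a log2 difference of -0.60 (SE 0.11, limma adjusted p = 0.161), Fos with -0.47 (SE 0.13, limma adjusted p = 0.288) and Jund with -0.30 (SE 0.09, limma adjusted p = 0.298). For 6 of the 9 genes (Junb, Jund, Fos, Egr1, Ier2 and Csrnp1) both Nec-1 libraries lay below both DMSO libraries, as did 39.1% of all genes. The median of the 9 genes was -0.21, against -0.09 over all genes. Atf3 at 0.04 (SE 0.11, limma adjusted p = 0.898) and Jun at -0.01 (SE 0.10, limma adjusted p = 0.983) overlapped between the groups. Fosb, too low to test, was higher in both Nec-1 libraries, at no more than 0.0976 FPKM.

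In organoids labelled 4-OHT, the single Nec-1 library had lower values than both DMSO libraries for 7 of the 9 genes, and none was lower by 1 log2 unit. This library allows no test, and its place against each DMSO library is the only check. Among all genes 49.3% were lower than in each DMSO library, and 1.15% were so by 1 log2 unit or more. The differences to the DMSO mean were -0.56 for Fos (-0.67 and -0.45 against the single libraries), -0.39 for Egr1, -0.29 for Junb, -0.28 for Atf3, -0.22 for Jund, -0.16 for Ier2 and -0.10 for Fosl2. Jun was above each DMSO library by 0.08 on average, and Csrnp1 lay between them. The median of the 9 genes was -0.23 and that of all genes -0.08. After median centring, which raised the median of all genes to 0.03, Fosl2 turned to 0.02 and 6 genes remained below each DMSO library, against 31.8% of all genes.

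Under Nec-1, the library labelled 4-OHT was above both EtOH libraries for 9 of 9 genes, as it was for 50.4% of all genes. Differences of at least 1 log2 unit above each EtOH Nec-1 library were found for Jun, Junb, Jund, Fos and Egr1, 5 of 9, and for 4.09% of all genes. Relative to the EtOH Nec-1 mean the values were 1.63 for Egr1, 1.61 for Fos, 1.43 for Jun, 1.17 for Jund, 1.14 for Junb, 0.85 for Fosl2, 0.43 for Atf3, 0.37 for Csrnp1 and 0.16 for Ier2. The order of Egr1 and Fos was thus the opposite of that without Nec-1. These libraries are other than those of the DMSO comparison, but with 1 library on one side the values have no replicate check. The comparisons of Nec-1 and of 4-OHT share DMSO libraries, so their values are only set side by side. Whether the 4-OHT differences differ with and without Nec-1 was not tested.

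Other genes of the pathway were read from fixed lists, compiled with earlier results of these libraries known, and their counts stand beside the 24.5% of all genes called higher and 16.7% called lower. Of 8 AP-1 and dimer partner genes tested, 4 rose in 4-OHT DMSO and none fell, with a median of 0.40. Batf2 and Fosl1, among those that rose, reached 1 FPKM only in libraries labelled 4-OHT, so for them the filter favoured a rise. Batf2, a small leucine zipper partner of JUN, went from 0.455 and 0.179 to 2.22 and 2.16 FPKM (log2 difference 1.28, limma adjusted p = 0.00614). The small MAF genes Maff and Mafk rose by 1.05 and 0.94 and Fosl1, which encodes FRA1, by 0.70 (limma adjusted p = 0.0205, 0.00117 and 0.0147). Of 26 other immediate early genes tested, 13 rose and 2 fell, with a median of 0.55. Klf2, among those that rose, likewise reached 1 FPKM only in libraries labelled 4-OHT. Trib1, a pseudokinase gene, went from 7.03 and 8.04 to 35.7 and 40.3 FPKM (2.19, limma adjusted p = 0.000351). Klf6, a zinc finger factor gene, rose by 1.69, Dusp5, which encodes a nuclear ERK phosphatase, by 1.68 and Phlda1 by 1.41 (limma adjusted p = 0.000452, 0.000498 and 0.000720). The 2 that fell, Gadd45a and Per1, changed by -0.73 and -0.62.

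Of the kinases and factors upstream of these genes, about as large a share was called as of all genes. Of 22 tested, 5 rose and 3 fell, against 24.5% and 16.7% of all genes, with a median of 0.21, and after median centring 3 rose and 5 fell, with a median of 0.06. Nab1, which encodes a corepressor of EGR1, rose by 1.17 and Map2k4, a kinase gene of the JNK pathway, by 1.01 (limma adjusted p = 0.000912 and 0.00107). Mapk3, which encodes an ERK kinase, had a difference of -0.59 (limma adjusted p = 0.00643). Srf, whose product binds the CArG box, rose by 0.43 (limma adjusted p = 0.00992). Of 10 genes of the integrated stress response and the p53 pathway, which include factors known to act on Atf3 and many targets of those factors, 2 rose and 4 fell, with a median of -0.35. Mdm2 and Ppp1r15a rose by 0.65 and 0.58, while Ddit3 and Asns changed by -0.53 and -0.51 (limma adjusted p = 0.00591, 0.0129, 0.0117 and 0.00661). Atf4, which encodes the central factor of the integrated stress response, was at 127 and 137 FPKM in EtOH DMSO and 88.8 and 107 in 4-OHT DMSO (-0.43, limma adjusted p = 0.0319).

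Known AP-1 target genes moved in both directions. Of 12 tested, 7 rose and 3 fell, with a median of 1.25. Ptgs2, among those that rose, reached 1 FPKM only in libraries labelled 4-OHT, so for it the filter favoured a rise. Plaur, the urokinase receptor gene, went from 9.41 and 9.38 to 65.9 and 67.2 FPKM (2.70, limma adjusted p = 0.000256). Areg and Ereg, which encode ligands of the EGF receptor, rose by 2.47 and 2.07, and the adhesion receptor gene Cd44 by 1.98 (limma adjusted p = 0.000302, 0.000750 and 0.000321). The genes that fell were the metallothioneins Mt1 and Mt2, by 0.80 and 0.81 on the log2 scale, and Vegfa, by 0.76. With Nec-1 in EtOH organoids Mt2 was the target gene called, from 394 and 346 to 835 and 854 FPKM (1.19, limma adjusted p = 0.0357). With Nec-1 in organoids labelled 4-OHT, Cd44 was at 8.10 FPKM against 18.05 and 18.98 with DMSO, a difference of -1.10, and Mt1 and Mt2 were each higher by 1.09.

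Nec-1 left most of these lists without a call in EtOH organoids. None of the 8 dimer partners, 26 other immediate early genes, 22 upstream genes and 10 stress genes passed the threshold (limma with Benjamini-Hochberg adjustment), and of the 12 target genes 1 did. Medians were 0.06, -0.16, -0.08, -0.21 and -0.0032 in that order, with -0.09 over all genes. With Nec-1 in organoids labelled 4-OHT, 3 of the 8 dimer partners lay below each 4-OHT DMSO library, 13 of the 26 other immediate early genes, 11 of the 22 upstream genes, 5 of the 10 stress genes and 7 of the 12 target genes, against 49.3% of all genes. All of these counts are at or near the share of all genes, and none is read as a result about its list. The largest of these differences among the immediate early genes was that of Ccn1, a matricellular protein gene, which was at 5.76 and 6.24 FPKM with DMSO and 2.59 with Nec-1 (-0.96).

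The study places Cflar, Ripk1, Ripk3 and Mlkl below Atf3 in the control of cell death. It proposes that ATF3 raises Cflar, and that the product of Cflar restrains the activity of the RIPK1 protein. The values here are RNA levels and do not measure protein activity. All 4 genes were called higher in 4-OHT DMSO, with a median of 0.82. The list was taken from the study's text, and its count is given as a description. Cflar, which encodes the caspase-8 inhibitor cFLIP, was at 2.96 and 3.65 FPKM with EtOH and DMSO, 3.27 and 3.38 with EtOH and Nec-1, 4.91 and 4.74 with 4-OHT and DMSO, and 4.12 with 4-OHT and Nec-1. Its difference of 0.44 (SE 0.11, limma adjusted p = 0.0278) lost its call under 9 of 16 other settings, with adjusted p up to 0.0864. Ripk1 was at 3.37 and 3.66 FPKM in EtOH DMSO against 8.32 and 8.26 in 4-OHT DMSO, and with Nec-1 at 3.47 and 4.03 in EtOH against 7.84 in 4-OHT organoids (1.04, SE 0.10, limma adjusted p = 0.00155). Ripk3, the kinase gene of necroptosis, was at 32.9 and 33.1 FPKM with EtOH and DMSO, 28.7 and 32.4 with EtOH and Nec-1, 44.8 and 57.2 with 4-OHT and DMSO, and 45.2 with 4-OHT and Nec-1. Its difference was 0.60 (SE 0.14, limma adjusted p = 0.0191) and missed the threshold without the first EtOH DMSO library, without the second, and with no filter on low values (limma adjusted p = 0.0815, 0.0762 and 0.0625). Mlkl, which encodes the executor of necroptosis, was at 3.83 and 3.77 FPKM in EtOH DMSO against 13.1 and 17.9 in 4-OHT DMSO, and with Nec-1 at 3.56 and 3.95 in EtOH against 7.85 in 4-OHT organoids (1.77, SE 0.15, limma adjusted p = 0.00118). With Nec-1, Mlkl had a difference of -0.88 in the organoids labelled 4-OHT, and no gene of this list was called in EtOH organoids.

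**Figure D5:**
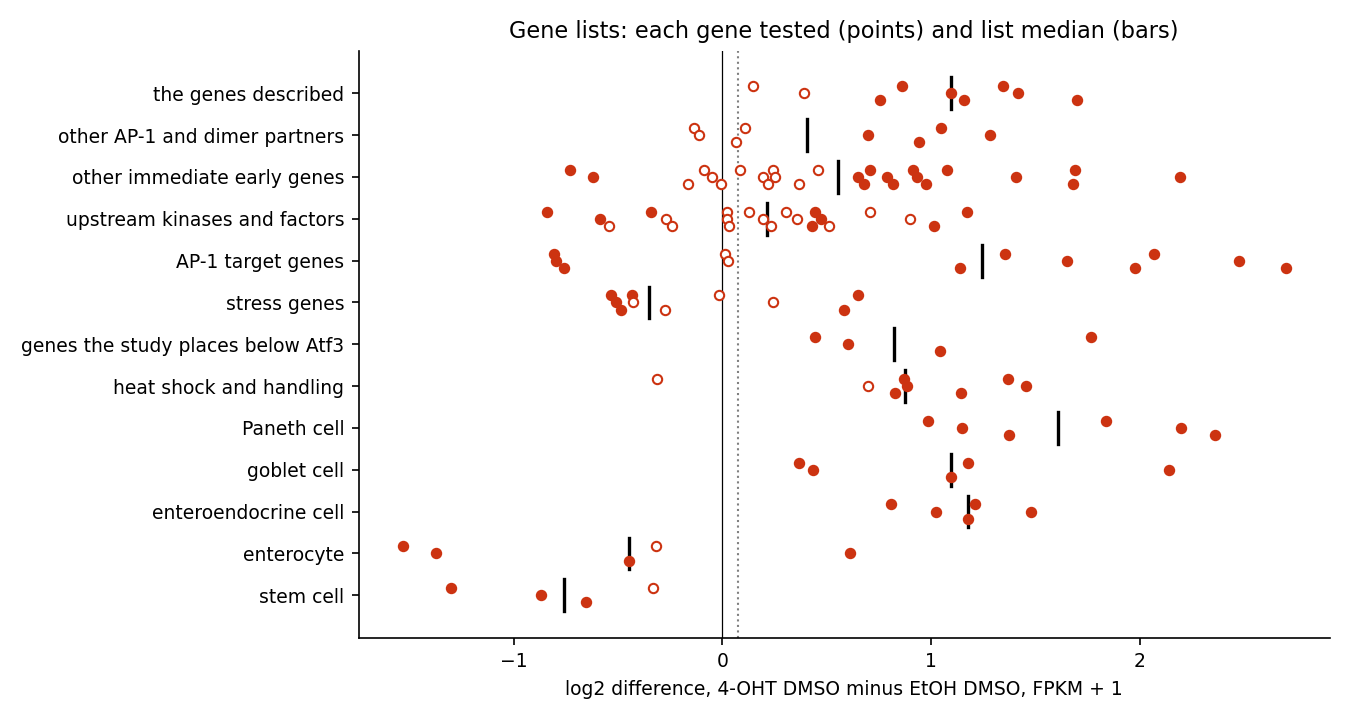
Log2 difference of FPKM + 1 between 4-OHT DMSO and EtOH DMSO for each tested gene of the lists (points, filled where the limma adjusted p is under 0.05) with list medians (bars); the dotted line is the median of all genes, 0.077. The genes described have a median of 1.09, AP-1 targets 1.25, stress genes -0.35 and stem cell markers -0.76.

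Markers of cell types and of handling moved with the same groups. The 6 Paneth cell markers summed to 7190 to 7920 FPKM in EtOH DMSO, 8404 to 8596 in EtOH Nec-1, 14403 in the library labelled 4-OHT Nec-1 and 18978 to 19539 in 4-OHT DMSO, where 6 of 6 were called higher. All 5 goblet cell markers (1256 to 1350 against 1864 to 2063 FPKM in sum) and all 5 enteroendocrine markers (351 to 363 against 791 to 940) were also called higher. Of the stem cell markers, 3 of 4 were called lower (36.8 to 40.4 against 15.4 to 22.4), as were 3 of 5 enterocyte markers, and 1 was higher. Of the 7 epithelial markers 5 were called higher, with a median of 0.43, and after median centring 2 were higher and 1 lower. The stem cell marker Lgr5 reached 1 FPKM only in the EtOH DMSO libraries, so for it the filter favoured a fall. Of 8 heat shock genes, which often rise with immediate early genes when tissue is handled, 6 were called higher, with a median of 0.88. Hspa1a and Hspb1, among these 6, reached 1 FPKM only in libraries labelled 4-OHT, so for them the filter favoured a rise. The sum of the 8 heat shock genes was 346 to 440 FPKM in EtOH DMSO and 407 to 418 in 4-OHT DMSO. Its largest part was Hspa8, at 357 and 259 FPKM in EtOH DMSO and 228 and 262 in 4-OHT DMSO. Hspa8 was not called (-0.31, limma adjusted p = 0.187), so the sum does not show the rise of the 6 genes called. Hspa1b, an inducible HSP70 gene, went from 1.73 and 1.93 to 7.29 and 6.26 FPKM. With Nec-1 in organoids labelled 4-OHT, 6 of 6 Paneth cell markers and 7 of 8 heat shock genes lay below each 4-OHT DMSO library. The same held for 7 of the 9 genes and for 49.3% of all genes. It also held for 7 of 7 epithelial, 4 of 4 stem cell and 4 of 5 goblet cell markers. Of the enteroendocrine markers 2 of 5 lay there, and of the enterocyte markers 1 of 5. The part of these cell types and of handling in the differences of the 10 genes was not tested.

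The genes whose levels followed Atf3 most closely over the 7 libraries were Omp, Slc10a2, Trex2, Upk1b and Synj2, with Pearson's r of log2(FPKM + 1) from 0.997 to 0.995. In EtOH DMSO they were lower than Atf3, at 0.180 to 1.597 FPKM. Like Atf3, all were higher in the second EtOH DMSO library than in the first and intermediate in 4-OHT Nec-1. This shared order follows from their choice by r over the same 7 libraries. Omp and Upk1b reached 1 FPKM only in libraries labelled 4-OHT. Slc10a2, for example, which encodes the ileal bile acid transporter, was at 0.737 and 1.35 FPKM in EtOH DMSO and 5.18 and 4.75 in 4-OHT DMSO. The contrast of 4-OHT and EtOH dominates such correlations, and 29.5% of the 3815 genes with a range of at least 1 log2 unit had r of at least 0.9. Within the set Fosl2 was nearest to Atf3 (r = 0.968, rank 233 of 3815) and Egr1 the furthest of the 6 in that range (r = 0.928, rank 842).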

How the data were processed

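RNA-seq libraries (7) of intestinal organoids in 4 groups were analysed, while 2 CUT&Tag samples are not analysed here. The authors deposited FPKM for 54838 Ensembl gene identifiers, 1 value per library, with replicates kept apart. The submitters' processing notes name HISAT2 2.1.0, StringTie 1.3.3b and mm10, without saying which step used which. Columns were matched to libraries by name, 0 were left unmapped and 2 repeated the values of other tables. Of the identifiers 54723 matched a symbol and 102 repeated one. FPKM are already scaled for length and depth and hold no counts, so limma 3.58.1 (R 4.3.3) with a mean-variance trend was fitted to log2(FPKM + 1) for genes that reached 1 FPKM in 2 or more libraries, with 1 mean per group over all 7 libraries, two-sided p-values, Benjamini-Hochberg adjustment and a threshold of 0.05. The pseudocount of 1 shrinks differences of genes near 1 FPKM. The group with 1 library was described without a test. Tables, promoter searches and plots used Python 3.11.15, numpy 2.4.6, pandas 2.3.3 and matplotlib 3.10.9, and the fit was tested on simulated data.

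The members and the 17 gene lists were chosen with earlier results of these data known. The genes named are the 10 members, Mettl3, the 4 genes placed below Atf3, up to 4 genes per list and comparison with the largest called changes (for the group with 1 library, the largest differences beyond each DMSO library), and the 5 genes most like Atf3. A gene that this rule would name is not reported here. Also named, after their values were seen, were Srf, Atf4, Vegfa, Gadd45a, Per1, Hspa8 and, for 4-OHT, Mt1 and Mt2. Alternatives were no trend, median centring, upper quartile scaling, pseudocounts of 0.1 and 0.25, no filter or 1 FPKM in every library, a fit to only the compared groups, a block for the replicate number, an unadjusted p with at least 1 log2 unit, and each library left out in turn. Promoter sequences and gene spans come from RefSeq tables of GRCm38.p6. No promoter window was matched for Ier2 and Egr1.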

Additional observations from a re-analysis of the deposited data

How the results depend on the processing

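All 7 calls among the 9 genes in 4-OHT DMSO against EtOH DMSO held under each of the 16 other settings of the fit, and 5 met the rule of an unadjusted p with at least 1 log2 unit. The number of all genes called moved to 1364 under that rule, from 5237. Of these 5237, 3117 were higher and 2120 lower, a split of 2213 to 3187 with median centring and 2232 to 2976 with upper quartile scaling. With either scaling goblet cell markers had 3 of 5 calls in place of 5, stress genes 6 falls in place of 4, and the genes placed below Atf3 3 rises in place of 4, without Cflar. Epithelial markers had 2 rises and 1 fall with median centring, and 3 and 1 with upper quartile scaling, in place of 5 rises. Replicate numbers did not pair the libraries (correlations of deviations between groups of -0.040, 0.0065 and -0.012). With the replicate number as a block 4697 genes were called for 4-OHT and 19 for Nec-1 in EtOH organoids, with the same counts of members, 7 and 0. The 28 genes called for Nec-1 in EtOH organoids became 43 with upper quartile scaling, 8 with no filter on low values, 79 with only the 4 libraries of the comparison, 90 with an unadjusted p and at least 1 log2 unit, and 9 to 75 with each library left out in turn. Genes 1 log2 unit or more beyond each 4-OHT DMSO library, 242 for Nec-1, became 460 and 400 with pseudocounts of 0.1 and 0.25, 136 with 1 FPKM in every library, and 437 to 755 with a DMSO library left out, which asks less of each gene.

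Small differences changed sign. For 4-OHT, Ier2 was -0.012 with median centring and -0.016 with upper quartile scaling. For Nec-1 in EtOH organoids these scalings gave 0.089 and 0.087 for Jun, 0.0090 and 0.0074 for Fosl2 and 0.084 and 0.070 for Mlkl, and in organoids labelled 4-OHT 0.017 and 0.030 for Fosl2 and 0.042 and 0.047 for Ripk1. Over the fits that left out 1 library, the differences of Nec-1 in EtOH organoids ranged from -0.044 to 0.13 for Atf3, from -0.11 to 0.092 for Jun, from -0.20 to 0.021 for Fosl2, from -0.10 to 0.13 for Cflar, from -0.014 to 0.16 for Ripk1 and from -0.074 to 0.043 for Mlkl. Median centring moves every gene of a library by the same amount, so a difference smaller than that shift can change sign. The cause of the other sign changes was not tested. Fragment counts are unknown, so no counting error can be given, and Fosb and Csrnp1 are near the lower limit of what these libraries resolve. Groups of 2 libraries, and 1 for 4-OHT Nec-1, limit every p-value and leave the last group without one.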
